A study of Mus musculus with 6 samples.

Results

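The genes described here are 9 astrocyte marker genes, Gfap, Aqp4, Slc1a2, Slc1a3, Aldh1l1, Aldoc, Gja1, Gjb6 and Vim, followed in cultured oligodendrocyte precursor cells (OPCs) with and without interferon gamma (IFN-γ). The rule takes them by name and uses no measured value. The tables of predicted enhancer-gene pairs held 32049 target genes in all, 20321 of them in both conditions. Of the 9 markers, 7 were target genes in both conditions, and Aqp4 and Aldoc were in neither. Among protein-coding genes, 12511 were target genes in Ctr-OPCs (without IFN-γ) and 12831 in IFN-γ-OPCs (with it). Being listed is thus not particular to the markers, and the listed share of all annotated genes was not computed.

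The cells were primary mouse OPCs of the genotype Sox10-Cre/RCE, an EGFP reporter line whose Cre is driven by a gene of the oligodendrocyte lineage, with C57BL/6j given as strain. Per the methods, they came from brains of early postnatal pups, several brains being pooled, and were isolated by the Sox10 reporter or by CD140a. All cells grew in proliferation medium with bFGF and PDGF-AA, and 24 h after passaging they were given either that medium again (Ctr-OPCs) or the medium with IFN-γ at 100 ng/mL (IFN-γ-OPCs). The 24 h is the time of this medium change and not the length of treatment, which the study's methods give separately. H3K27ac HiChIP, which captures chromatin contacts of regions carrying an active histone mark, was made from 3 libraries per condition. The activity-by-contact (ABC) model joined these contacts to ATAC-seq and H3K27ac CUT&RUN signal. The 3 libraries of a condition share 1 deposited table, so the values below have no replicate error, no test between conditions was possible, and "higher" or "lower" compares 2 numbers only. Read depth is unknown from these tables.

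Astrocytes and OPCs are both glia of neural progenitor origin, and the markers listed here are used to tell astrocytes apart. Gfap and Vim encode intermediate filament proteins of the cytoskeleton, Slc1a2 and Slc1a3 the main glial transporters that clear glutamate, and Gja1 and Gjb6 the connexins of astrocyte gap junctions. Aldh1l1 encodes an enzyme of folate metabolism, Aldoc a glycolytic aldolase, and Aqp4 the water channel of astrocyte end-feet. Several are not restricted to astrocytes: Slc1a3 and Vim are also expressed in progenitor cells.

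Each listed pair is an element and a target gene. The element has an activity, a signal from accessibility and H3K27ac, and a contact with the gene's start. The ABC score is activity times contact divided by the same product summed over every element around the gene, here called the gene total. Only scores of at least 0.02 and genes whose promoter activity quantile was at least 0.4 are listed, and a pair above 0.05 is called a connection. In each condition 0 listed pairs joined a gene to its own promoter. A lack of listed elements at a start thus does not show an inactive promoter.

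The elements on which the results turn are shown first, as the central 300 bases of each on the plus strand of GRCm38. The element upstream of Slc1a3 had the largest activity ratio upward among connections and the highest score of any marker in IFN-γ-OPCs, the element upstream of Gjb6 the largest ratio downward (0.691, but 1.06 per base of its listed length), and the element inside Vim the highest score in Ctr-OPCs. Capitals mark matches, on either strand, to 5 short motifs: TTCNNNGAA (a STAT site), GAAANNGAA (the core of an interferon-stimulated response element, ISRE), TGANTCA (AP-1), TTGGCA (1 arm of the NFI palindrome) and ACAAAG (SOX).
Slc1a3 upstream element, chr15:8716318-8716617: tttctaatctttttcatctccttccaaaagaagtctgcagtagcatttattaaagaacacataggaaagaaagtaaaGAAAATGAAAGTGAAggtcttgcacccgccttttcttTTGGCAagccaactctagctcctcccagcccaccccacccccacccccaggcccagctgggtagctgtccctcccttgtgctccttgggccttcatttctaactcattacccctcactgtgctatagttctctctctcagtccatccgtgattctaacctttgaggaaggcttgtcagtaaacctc
Gjb6 upstream element, chr14:57135530-57135829: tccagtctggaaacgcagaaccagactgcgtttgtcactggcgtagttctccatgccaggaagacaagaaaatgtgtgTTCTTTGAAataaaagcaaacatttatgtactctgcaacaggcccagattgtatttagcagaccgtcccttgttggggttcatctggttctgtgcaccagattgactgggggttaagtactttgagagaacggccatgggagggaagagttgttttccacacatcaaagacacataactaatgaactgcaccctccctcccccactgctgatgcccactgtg
Vim internal element, chr2:13575827-13576126: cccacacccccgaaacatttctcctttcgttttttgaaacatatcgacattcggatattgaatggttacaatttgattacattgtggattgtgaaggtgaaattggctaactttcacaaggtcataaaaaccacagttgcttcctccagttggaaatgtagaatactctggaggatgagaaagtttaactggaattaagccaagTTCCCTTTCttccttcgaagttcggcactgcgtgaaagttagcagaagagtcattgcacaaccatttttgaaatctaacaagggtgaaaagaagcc
The Slc1a3 sequence is intergenic and held 3 matches, of which the longer run of capitals is a pair of overlapping ISRE cores and the shorter an NFI arm. The Gjb6 sequence is intergenic and held 1 match, a STAT site. The Vim sequence lies in the intron after a short coding exon that the element also covers, is exonic in a retained-intron transcript of GENCODE M21, and held 1 match, an ISRE core.

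The promoters of Vim, Slc1a2, Slc1a3 and Gfap were listed with quantiles above 0.7 in both conditions, and those of Aldh1l1, Gja1 and Gjb6 had lower quantiles under IFN-γ. The quantile ranks a promoter's activity among genes, and its median over listed protein-coding genes was 0.804 in Ctr-OPCs against 0.803 in IFN-γ-OPCs. Vim stood above that median, at 0.922 in Ctr-OPCs against 0.974 in IFN-γ-OPCs. The transporter gene Slc1a2 was at 0.817 and 0.856, and Slc1a3 at 0.799 and 0.778. Gfap was at 0.771 and 0.783. The quantiles of these 4 genes differed between conditions by at most 0.0513.

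The gap junction genes and the folate enzyme differed by more. Gjb6 was at 0.726 in Ctr-OPCs against 0.527 in IFN-γ-OPCs, the widest gap among the markers. Aldh1l1 went from 0.620 to 0.478 and Gja1 from 0.590 to 0.451. Thus 3 of 7 markers were lower by over 0.1 in IFN-γ-OPCs and 0 of 7 higher by over 0.1. Of all 20321 genes in both tables, 8.45% were lower and 8.79% higher by that margin, which was chosen after the values were seen. The 3 lower markers had the lowest Ctr-OPC quantiles of the 7, and genes of like quantile were not compared. Of 11 neuron genes described below, 2 were lower by over 0.1 and 1 higher. As a percentile among listed protein-coding genes, Aldh1l1, Gja1 and Gjb6 were again lower by over 0.1. Slc1a2 and Vim were higher by 0.106 and 0.126 on that scale. There 11.96% of protein-coding genes were lower by over 0.1 and 11.7% higher. In bulk samples, fewer cells with an active promoter and less activity per cell cannot be told apart.

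**Figure D1:**
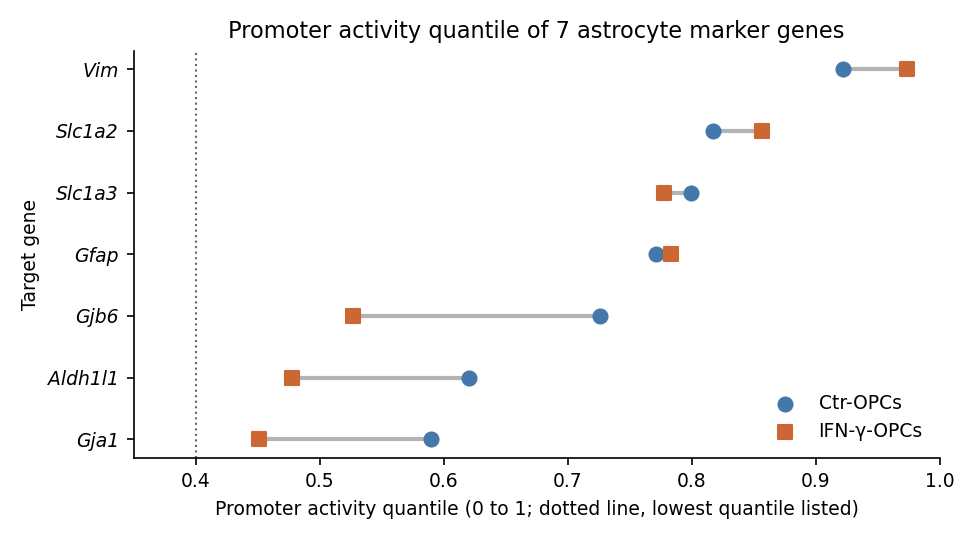
Promoter activity quantile (horizontal axis, 0 to 1) of the 7 listed marker genes, 1 point per condition and gene, with no error because each condition is 1 pooled table. Gjb6, Aldh1l1 and Gja1 were lower in IFN-γ-OPCs, at 0.527, 0.478 and 0.451, while the other genes stayed above 0.7 in both conditions.

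The 2 unlisted markers differed in what lay around them. No listed element of any gene lay within 10 kb of the start of Aldoc on chromosome 11 in either condition, and within 50 kb there was 1 element in Ctr-OPCs against 2 in IFN-γ-OPCs, all listed for Unc119 alone. Around the start of Aqp4 on chromosome 18, 3 elements lay within 10 kb in Ctr-OPCs against 2 in IFN-γ-OPCs. Their targets were AC133525.2 and AC133525.3 in Ctr-OPCs and AC133525.2 alone in IFN-γ-OPCs, and not Aqp4. The most active of them lies in introns of Aqp4 and AC133525.2. It had an activity of 1.30 in Ctr-OPCs against 0.836 in IFN-γ-OPCs. A gene's own promoter is not among its listed pairs, so these counts need not include the promoters of Aldoc and Aqp4. Whether the quantile limit or the score limit kept Aqp4 and Aldoc out was not tested.

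The 7 listed markers had 27 pairs in Ctr-OPCs against 30 in IFN-γ-OPCs, of which 19 matched between the tables. Connections numbered 7 and 9. Slc1a3 had 2 in Ctr-OPCs against 4 in IFN-γ-OPCs, Vim 2 and 3, and Gja1 0 and 1, while Aldh1l1 and Gjb6 each had 1 and 0. Gfap kept 1 in each and Slc1a2 had none above the cut-off in either. So 3 of 7 markers had more connections and 2 of 7 fewer, beside 16.5% and 14.3% of all genes. At a stricter cut-off of 0.1, 1 pair of Vim remained in Ctr-OPCs, and IFN-γ-OPCs had 0. The gain of Slc1a3 was lost with the power-law score, which gave 4 and 4, and with all deposited pairs, 7 and 7. The gain of Gja1 was lost with all deposited pairs, 4 and 4, and the loss of Gjb6 with the power-law score, 1 and 1. With all deposited pairs both losses turned, to 4 and 5 for Aldh1l1 and 2 and 3 for Gjb6. All 7 connections of Ctr-OPCs and 7 of the 9 in IFN-γ-OPCs lay within 10 kb of the gene's start. Several scores lay close to 0.05: the Aldh1l1 pair at 0.0506, the Gja1 pair at 0.0523 and a Slc1a3 pair at 0.0532, while the highest scores under it were 0.0480 for Slc1a3 in Ctr-OPCs and 0.0442 for Vim in IFN-γ-OPCs.

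**Figure D2:**
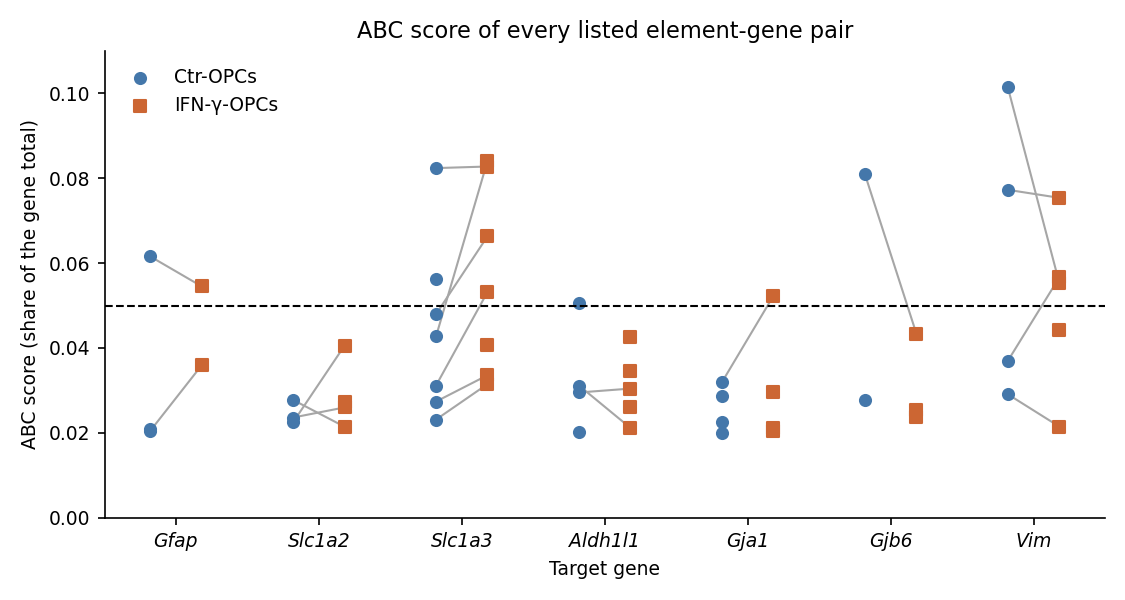
ABC score (vertical axis, share of the gene total) of every listed pair of the 7 markers, with circles for Ctr-OPCs, squares for IFN-γ-OPCs, grey lines joining pairs matched between the tables and the 0.05 cut-off dashed. The highest score was 0.101, for Vim in Ctr-OPCs, and 4 Slc1a3 pairs lay above the line in IFN-γ-OPCs.

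The gene total, which sums activity times contact around a gene, was higher in IFN-γ-OPCs for Slc1a3, Vim and Slc1a2 and lower for the other 4 markers. Of all genes, 35.7% were higher. Centred on the median over genes in both tables, Gja1 was no longer lower, at a log2 ratio of 0.0025. For Slc1a3 the total was 0.682 in Ctr-OPCs against 0.878 in IFN-γ-OPCs, a ratio of 1.29. Vim had 0.572 and 0.707, a ratio of 1.24, and Slc1a2 had 0.945 and 1.14, a ratio of 1.20. The astrocyte filament gene Gfap had the largest totals of the 7, 1.89 and 1.70, higher than those of 93.0% of listed protein-coding genes in each condition. Gja1 had the smallest, 0.368 and 0.352.

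The totals of Aldh1l1 (1.30 and 1.20) and Gjb6 (0.732 and 0.686) were lower in IFN-γ-OPCs by less than 10%. A log2 ratio of 0.32 was taken as the margin for totals. Slc1a3 alone was past it upward, against 4.3% of all genes, and 0 of 7 were past it downward, against 2.91%. The median log2 ratio over the 7 markers was -0.06, and over all 20321 genes it was -0.07. When the tables were centred on the latter, Vim and Slc1a2 also passed that margin, giving 3 of 7 against 6.85% of all genes. Slc1a2 was then at 0.33, and at 0.29, within the margin, without a distant element described below. With the power-law contact in place of the measured one, Slc1a3 was within the margin at a log2 ratio of 0.21 and Vim past it at 0.50. Of all genes, 3.52% were then past it upward and 3.26% downward.

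**Figure D3:**
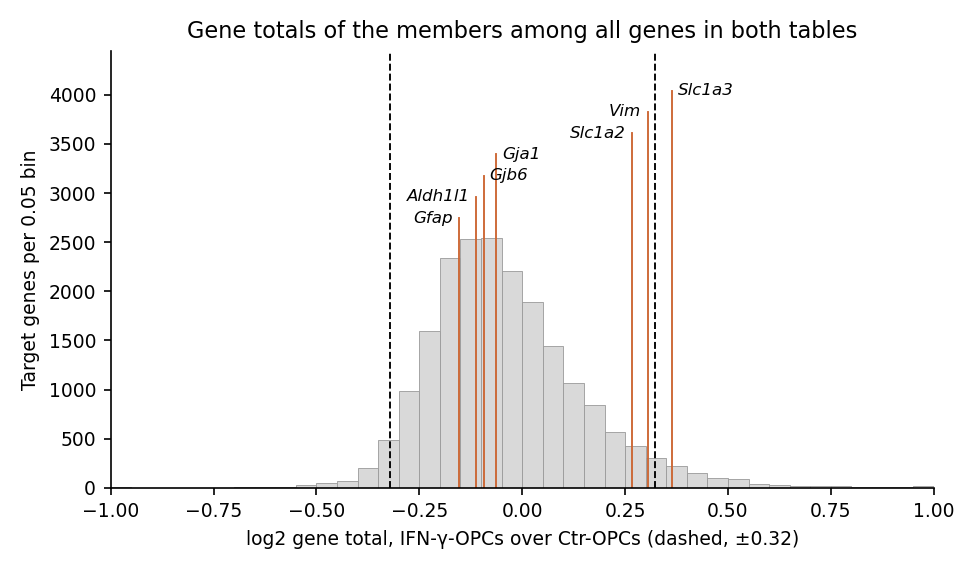
Histogram of the log2 ratio of gene totals, IFN-γ-OPCs over Ctr-OPCs, for the 20321 genes in both tables (vertical axis, genes per bin; ratios beyond the axis are in the end bins), with a vertical line for each of the 7 markers and dashed lines at 0.32 on either side of 0. Gfap, Aldh1l1, Gjb6 and Gja1 lie within the main body of genes, and Slc1a2, Vim and Slc1a3 at 0.27, 0.30 and 0.36.

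Among the glutamate transporters, Slc1a3 had the most pairs, 7 in each condition. Its intronic element at chr15:8706090-8706589 had nearly the same score in both, 0.0824 and 0.0827, with a contact of 0.0444 and 0.0436. The elements upstream of the gene share a contact bin, and their contact was 0.0358 in Ctr-OPCs against 0.0590 in IFN-γ-OPCs, a ratio of 1.65. The nearer of them, the Slc1a3 element whose bases are given above, had an activity of 0.813 in Ctr-OPCs (chr15:8715785-8716706) against 1.251 in IFN-γ-OPCs (chr15:8716218-8716717), and its score was 0.0427 and 0.0840. It was listed at 922 bp in the former and 500 bp in the latter, so the shorter window had the higher activity. The farther one, at chr15:8717170-8717669, had a score of 0.0480 and 0.0663 with activities of 0.913 and 0.987. Both were thus below the cut-off in Ctr-OPCs and above it in IFN-γ-OPCs.

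Another Slc1a3 element crossed the cut-off through contact rather than activity. It lies in an intron at chr15:8659567-8660066, 50.9 kb from the start, and its contact was 0.00574 in Ctr-OPCs against 0.0116 in IFN-γ-OPCs, a ratio of 2.03, while its activity was 3.70 and 4.01. Its score was 0.0312 and 0.0532. In the other direction, the element at chr15:8709621-8710120, 0.894 kb from the start, scored 0.0563 in Ctr-OPCs, and no element listed in IFN-γ-OPCs overlapped it. An element 81.3 kb away, beyond the gene's 3′ end, was listed for Slc1a3 at 0.0407 in IFN-γ-OPCs and only for other genes in Ctr-OPCs.

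Slc1a2 had 3 weak local pairs in Ctr-OPCs, between 0.0225 and 0.0278. In IFN-γ-OPCs the first intronic one, at chr2:102662817-102663629, scored 0.0406, with an activity of 0.491 in Ctr-OPCs against 0.790 in IFN-γ-OPCs, the highest ratio among the markers' elements at 1.61. Its listed length was 500 bp and 813 bp, and per base the ratio was 0.990. A further pair in IFN-γ-OPCs joined Slc1a2 to chr2:98666095-98666594, over a coding exon of Gm10800 and 3.99 Mb away. That element had an activity of 84.1, the highest of the whole table, an observed contact of 0 before the pseudocount, and was listed for 62 genes in IFN-γ-OPCs and for none in Ctr-OPCs. It made up 2.73% of the Slc1a2 total, and without it the ratio of totals was 1.17 instead of 1.20.

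The filament gene Gfap kept its connection to an intronic element at chr11:102898294-102898793, with a score of 0.0616 in Ctr-OPCs against 0.0545 in IFN-γ-OPCs. The contact hardly differed, at 0.0403 and 0.0408, and the activity was 2.88 and 2.26. This element was not private to Gfap: it was listed for 5 other genes in Ctr-OPCs, among them C1ql1, an OPC gene, and for 3 in IFN-γ-OPCs. A second Gfap element, over a coding exon of Kif18b, scored 0.0205 and 0.0359, with a contact of 0.0477 and 0.0687.

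Vim had a pair of strong proximal elements. The one inside the gene, chr2:13575523-13576430, had the highest score of any marker in Ctr-OPCs, 0.101, against 0.0553 under IFN-γ. Its activity was nearly equal, 1.67 and 1.63, and its contact was 0.0348 and 0.0240. The upstream element at chr2:13572137-13572636 scored 0.0772 and 0.0754, with an activity of 0.912 and 1.26. Vim also had 2 long-range elements in introns of Cubn, 175 and 189 kb away. The nearer, at chr2:13398908-13399407, had an activity of 3.58 and 4.70 and a score of 0.0370 and 0.0566, so that it was a connection in IFN-γ-OPCs only. It was listed for 11 other genes in each condition, and Trdmt1, the next gene to Vim, shared 4 of Vim's 4 elements in Ctr-OPCs and 3 of 5 in IFN-γ-OPCs.

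The gap junction genes went opposite ways in connections at the 0.05 cut-off. For Gjb6, the upstream element at chr14:57134923-57136436 was lower in both components, with an activity of 0.851 in Ctr-OPCs against 0.588 in IFN-γ-OPCs and a contact of 0.0696 and 0.0507, and its score was 0.0810 and 0.0434. Its listed length also differed, at 1514 and 991 bp, and per base the activity ratio was 1.06. A distant Gjb6 element in an intron of Il17d, listed for 16 other genes, had an activity of 5.68 and 3.23 over 1109 and 707 bp and was not listed for Gjb6 in IFN-γ-OPCs. For Gja1, the element over an untranslated part of the gene scored 0.0319 in Ctr-OPCs (chr10:56377950-56378449) and 0.0523 in IFN-γ-OPCs (chr10:56378349-56378848), with a contact of 0.0149 and 0.0208. The windows, each of 500 bp, share 101 bp, and with a required overlap of 50% they were not matched. That contact was low for its distance, 0.121 and 0.169 of what the model's power law of distance gives. Gja1 also had a Ctr-OPC pair 167 kb away, with a contact 1.83 times the power-law value. Farther pairs lay 516 and 624 kb away in Ctr-OPCs and 522 and 1064 kb away in IFN-γ-OPCs, whose contacts were between 4.06 and 7.69 times the power-law value.

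Aldh1l1 had 1 connection in Ctr-OPCs, an intronic element at chr6:90495370-90495869 with a score of 0.0506. Its activity was 1.74 in Ctr-OPCs against 1.31 in IFN-γ-OPCs, where it was listed for other genes and not for Aldh1l1. All listed elements of Aldh1l1, 4 in Ctr-OPCs against 5 in IFN-γ-OPCs, were also listed for the long non-coding RNA gene Gm45901. Of the 5 in IFN-γ-OPCs, an intronic element at chr6:90531654-90532153 with an activity of 3.63 was matched by no listed element of Ctr-OPCs.

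The start that the tables assign to a gene matters for how these values are read. RefSeq promoters were found for 8 of the 9 markers, all but Aqp4. In neither condition did a listed element of any gene lie over the RefSeq start used for any of these 8. For Vim, Slc1a3, Gja1, Gjb6 and Aldoc the RefSeq start lay within 0.384 kb of the start used in the tables or, for Aldoc, in GENCODE. For Gfap it lay 3.71 kb downstream of it, and the Gfap connection described above sits 1.34 kb upstream of that RefSeq start in Ctr-OPCs. For Slc1a2 it lay 47.8 kb downstream and for Aldh1l1 64.4 kb downstream, with 0 listed elements within 10 kb of either RefSeq start in both conditions. The quantiles, contacts and totals of Slc1a2, Aldh1l1 and Gfap thus refer to a GENCODE start upstream of the RefSeq one.

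Over all markers, 26 elements were matched between the tables. Activity was higher in IFN-γ-OPCs for 13 and lower for 13, beside 42.1% higher among 19332 matched elements of all genes. Past 1.5-fold, 3 were higher, 2 of Slc1a3 and 1 of Slc1a2, against 9.37% of all matched elements, and 1 was lower, the Il17d element of Gjb6, against 13.3%. The median log2 ratio was 0.02 over these 26 and -0.08 over all matched elements, and it was -0.14 over the 19 without Slc1a3. When matched elements had to overlap by 50% of both, the Slc1a2 element and the proximal Gja1 element were no longer matched and the marker median was -0.028. Listed length differed between the tables for all 4 elements past 1.5-fold. Among the 17 of 26 with equal length, 0 were past 1.5-fold in either direction, beside 5.73% of such elements of all genes upward and 4.09% downward. With activity divided by length, 1 of 26 was past it upward, the Slc1a3 upstream element at 2.84, and 0 downward, beside 7.99% and 5.22% of all matched elements.

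Contact was higher in IFN-γ-OPCs for 13 of the 19 matched pairs and lower for 6. The median log2 ratio was 0.33, beside 0.05 over 29858 pairs of all genes, of which 54.6% were above 0. Past 1.5-fold, 4 pairs were higher, against 12%, and 0 lower, against 8.33%. All 4 belonged to Slc1a3, and the upstream pair share 1 contact value, so they are 3 distinct values out of 16. Of those 16 values, 11 were higher and 5 lower, with a median log2 ratio of 0.29. Without Slc1a3 the median was 0.25 over 13 pairs. Slc1a2 had a higher contact in 3 of 3 pairs, its intronic pairs sharing 1 contact value. Gfap had it in 2 of 2, Vim in 2 of 4, Aldh1l1 in 1 of 2, Gja1 in its 1 pair and Gjb6 in 0 of 1.

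**Figure D4:**
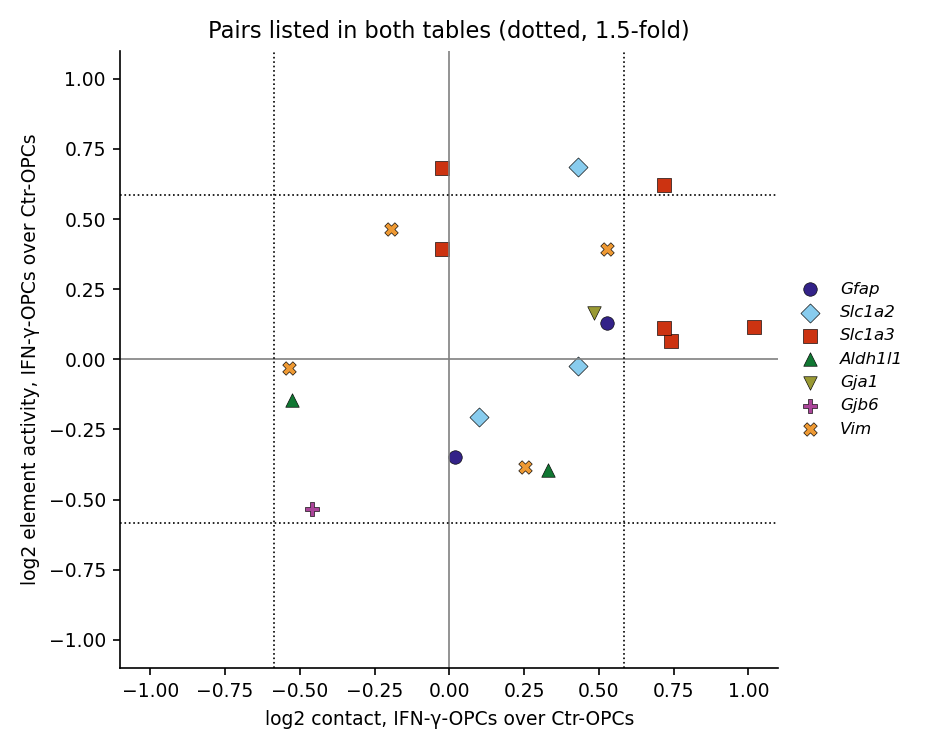
The 19 marker pairs listed in both tables, by log2 ratio of contact (horizontal axis) and of element activity (vertical axis), IFN-γ-OPCs over Ctr-OPCs, with dotted lines at 1.5-fold. The nearer upstream element of Slc1a3 is past 1.5-fold on both axes, and Gjb6 is lower on both.

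Motif matches were counted in the central 500 bp of each element. The ISRE core was found in 5 of 27 marker elements in Ctr-OPCs and 11 of 30 in IFN-γ-OPCs, beside 13.7% of 33083 and 17.0% of 35906 listed elements. The Slc1a3 upstream element held 3 in both tables. The STAT site was found in 8 of 27 and 9 of 30 marker elements, beside 13.9% and 15.2%, among them the Gfap connection and the Gjb6 upstream element, which held 2. For the SOX motif the counts were 10 of 27 and 14 of 30, beside 38.9% and 41.0%, for the NFI arm 11 and 13, beside 29.7% and 29.6%, and for AP-1 4 and 4, beside 14.5% and 16.2%. Many elements are in both tables and enter both counts, and a match describes the letters only. In the RefSeq promoters, from 250 bases before to 50 after the start, a STAT site was found in 3 of the 9 promoters of 8 markers (Gfap, Slc1a3 and 1 of the 2 of Aldoc), beside 8.30% of 32851 promoters, and an ISRE core in 0 of 9, beside 8.56%.

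Other genes linked to astrocytes were largely listed too. Many of these genes, and of the reactive genes below, are also made by OPCs or progenitor cells. Of 20 further astrocyte genes, 19 were target genes in Ctr-OPCs against 17 in IFN-γ-OPCs, with a median quantile of 0.858 and 0.836, and 1, Slc7a10, was in neither. Their gene totals were higher in IFN-γ-OPCs for 4 and lower for 13 of the 17 in both tables, where 35.7% of all genes were higher. The highest ratios were those of Nfib (1.248), a transcription factor of gliogenesis, and Ntsr2 (1.09), a neurotensin receptor. The lowest were those of Sox9 (0.786), a glial transcription factor, and S100b (0.813), a calcium-binding protein. Connections of these genes numbered 11 and 16. Of 16 genes raised in reactive astrocytes, 13 and 14 were listed, and over the 13 in both tables the median quantile was 0.718 and 0.616. Of the 17 other astrocyte genes in both tables, 1 had a quantile lower by over 0.1 and 1 higher. Of these 13 reactive genes, 4 were lower by over 0.1 in IFN-γ-OPCs and 1 higher, beside the 8.45% and 8.79% of all genes.

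Genes that define the cultured cell type had a higher median quantile than the 7 listed markers, with overlapping ranges. All 15 OPC genes, Pdgfra, Sox10 and Olig2 among them, were listed in both conditions, with a median quantile of 0.903 and 0.879 and 25 and 21 connections. They ranged from 0.697 to 0.995 in Ctr-OPCs, so that Vim lay above their median and Cspg5, at the low end, below several markers. Of the genes of maturing oligodendrocytes, 8 were in both tables, with medians of 0.759 and 0.749. Markers of cells outside the lineage were also partly listed: 6 and 8 of 12 microglia genes, 11 and 12 of 12 neuron genes, and 8 and 8 of 12 vascular and fibroblast genes. Over the genes in both tables the medians were 0.646 and 0.654 for microglia (6 genes), 0.669 and 0.681 for neurons (11 genes) and 0.671 and 0.647 for vascular cells and fibroblasts (5 genes). Itgam, C1qa, Trem2 and Fcrls of the microglia list were in neither table. The part of other cell types in the astrocyte marker values was not tested.

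**Figure D5:**
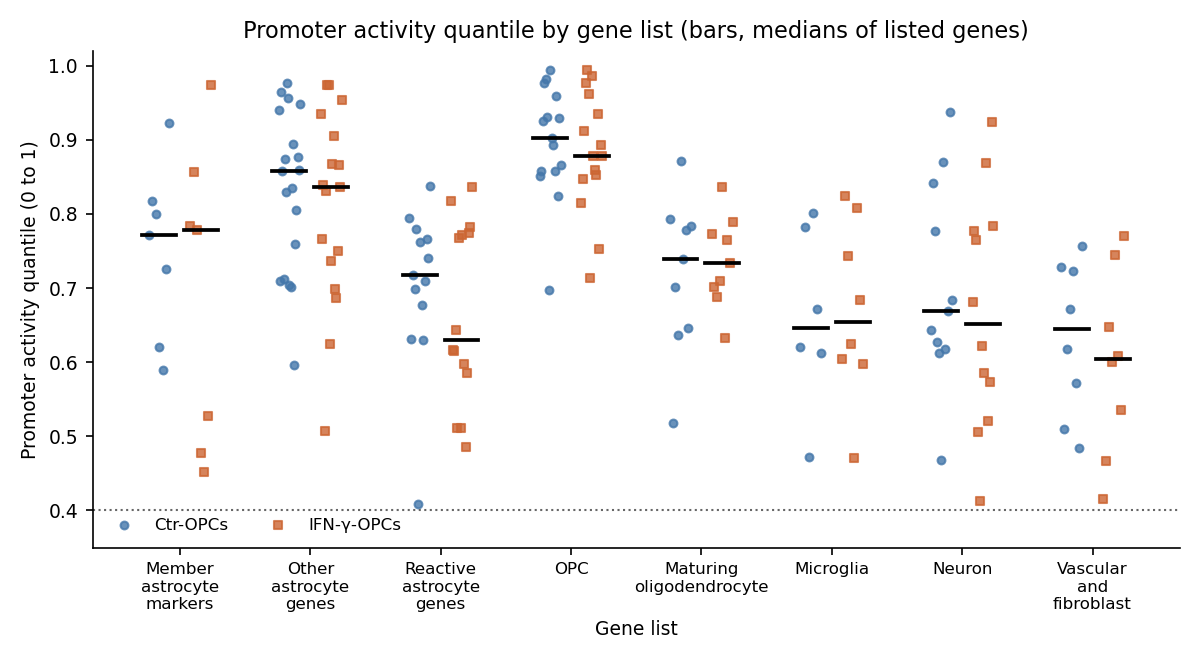
Promoter activity quantile (vertical axis) of every listed gene of 8 lists, with circles for Ctr-OPCs, squares for IFN-γ-OPCs and bars at the medians of the genes listed in that condition, which can be different genes. The marker genes described here have medians of 0.771 and 0.778, below the OPC genes at 0.903 and 0.879, and genes under the dotted line at 0.4 are not listed.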

How the data were processed

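H3K27ac HiChIP was made from 6 libraries, 3 per condition. Per the study's methods, the authors aligned reads to mm10 with HiC-Pro (version not given in the sources used here) and ran the ABC model with ATAC-seq and CUT&RUN data of the same condition. The deposited tables give element activity as a signal, promoter quantiles and ABC scores as a fraction, and contacts at 5 kb bins and their products with activity as score values with no fixed range. How activity and contact were scaled between conditions is not stated. Each deposited table pools its libraries, so depth is unknown and values rest on 1 number per condition.

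The gene total was recovered as activity times contact divided by the ABC score. Elements were matched when they overlapped by at least 1 bp and each was the other's best overlap, and pairs when the target gene was also the same. Log2 ratios past 0.32 for totals and ratios past 1.5-fold for activity and contact were counted. All 9 markers were named. Other named genes shared the most elements with a marker, at most 3 each, or had the 2 highest and 2 lowest totals of the other astrocyte genes. Hosts of an element, targets near an unlisted marker, unlisted genes and examples from a list were picked with their values in view. The markers and lists were chosen with earlier results of these data known. Gene symbols were taken from GENCODE M21 (GRCm38), in which 31937 of 32049 target genes were found. Sequences and promoters came from RefSeq (GRCm38.p6). Positions are 1-based. The short and paired-end forms of the tables were not used. The procedures were tested on simulated data. Python 3.11.15, pandas 2.3.3, NumPy 2.4.6, pysam 0.24.0 and matplotlib 3.10.9 were used.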

Additional observations from a re-analysis of the deposited data

How the results depend on the processing

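No paired analysis was possible because the prediction tables used here hold 1 value per condition over its 3 libraries, so none could be left out either. Connections of the markers numbered 7 for Ctr-OPCs and 9 for IFN-γ-OPCs, a difference of 2. With all deposited pairs these were 27 and 30, and Aldh1l1 and Gjb6 then each had 1 more pair in IFN-γ-OPCs instead of 1 fewer. With a cut-off of 0.1 they were 1 and 0, a difference of -1 that came from Vim alone (-1). The power-law score gave 10 and 12, with Slc1a3 at 4 and 4, and equal numbers of top-scoring pairs left 7 and 9. The median log2 ratio of gene totals was -0.06, and 0.0025 when centred on the median over genes in both tables or 0.011 when centred over genes with a promoter quantile of at least 0.6. Gja1, the marker at that median, moved from -0.06 to the same values. With power-law contact the Slc1a3 total had a log2 ratio of 0.21 and Vim 0.50. Vim and not Slc1a3 was then past the margin of 0.32, beside 3.52% of all genes upward and 3.26% downward. The median log2 ratio of element activity was 0.02 and moved to 0.13 when each table was centred on its median activity, and to -0.028 when a reciprocal overlap of 50% was asked for, with 2 of 24 elements past 1.5-fold upward and 1 downward, beside 7.37% and 9.33% of all elements matched that way. The direction of that median is therefore not settled by these tables. The median log2 ratio of contact ranged from 0.25 to 0.36 under its alternatives. As a percentile among listed protein-coding genes, the quantile was still lower by over 0.1 for Aldh1l1, Gja1 and Gjb6, and higher by over 0.1 for Slc1a2 and Vim (2 of 7 instead of 0), beside 11.96% of protein-coding genes lower and 11.7% higher on that scale. Leaving out the distant Slc1a2 element, dividing activity by length (median 0.09) and keeping elements of equal length (median 0.07) were chosen after seeing the data.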
